A study of Mus musculus with 6 samples.

Results

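The genes described here encode the enzymes that write, copy, oxidise and read DNA methylation: the methyltransferases Dnmt1, Dnmt3a and Dnmt3b, the dioxygenases Tet1, Tet2 and Tet3, the maintenance partner Uhrf1 with its paralog Uhrf2, and the methyl-CpG reader Mbd2. They were taken as a named list of 9 genes, and all 9 were among the 18193 genes measured. Together they had 23 probe sets, and the brightest of these, averaged over the 6 arrays, stands for the gene. RNA came from 2 populations of wild-type C57BL/6 mouse cells, purified by flow cytometry, with 3 arrays each. Both populations were low in lineage markers and positive for Kit. LSK cells were also positive for Sca-1 and are labelled as haematopoietic stem cells, although this gate is known to hold multipotent progenitors too. LK cells were negative for Sca-1 and are labelled as progenitors. The age of the mice is not given in the sources used here, and neither is the number of mice behind an array. Levels are log2 of the deposited intensities, and a difference is always LSK minus LK on that scale.

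Methyl groups on cytosines of CpG dinucleotides are placed on unmodified DNA by Dnmt3a and Dnmt3b, and are copied to the new strand after replication by Dnmt1, which Uhrf1 brings to half-methylated sites. Tet enzymes oxidise methylcytosine, and the oxidised bases are lost by dilution or by excision and repair. Mbd2 binds methylated CpGs and recruits the NuRD complex, which remodels and deacetylates nucleosomes. In blood-forming cells these genes are known from mouse knockouts and from leukaemia, where DNMT3A and TET2 are often mutated.

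Of the 9 genes, 2 were higher in LSK (Tet1 and Dnmt3b), 1 was lower (Mbd2) and 6 did not pass an adjusted p of 0.05 in limma. Over all genes measured, 6.73% passed the same threshold, 3.84% higher and 2.89% lower in LSK. The median difference was 0.07 for the 9 genes and -0.02 for all genes. The populations did not overlap in the same 3 genes of the 9, against 28.0% of all genes. A fit that blocks on the replicate number called the same 3, against 14.4% of all genes. These are bulk samples, in which a smaller share of expressing cells and less RNA per cell cannot be told apart.

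**Figure D1:**
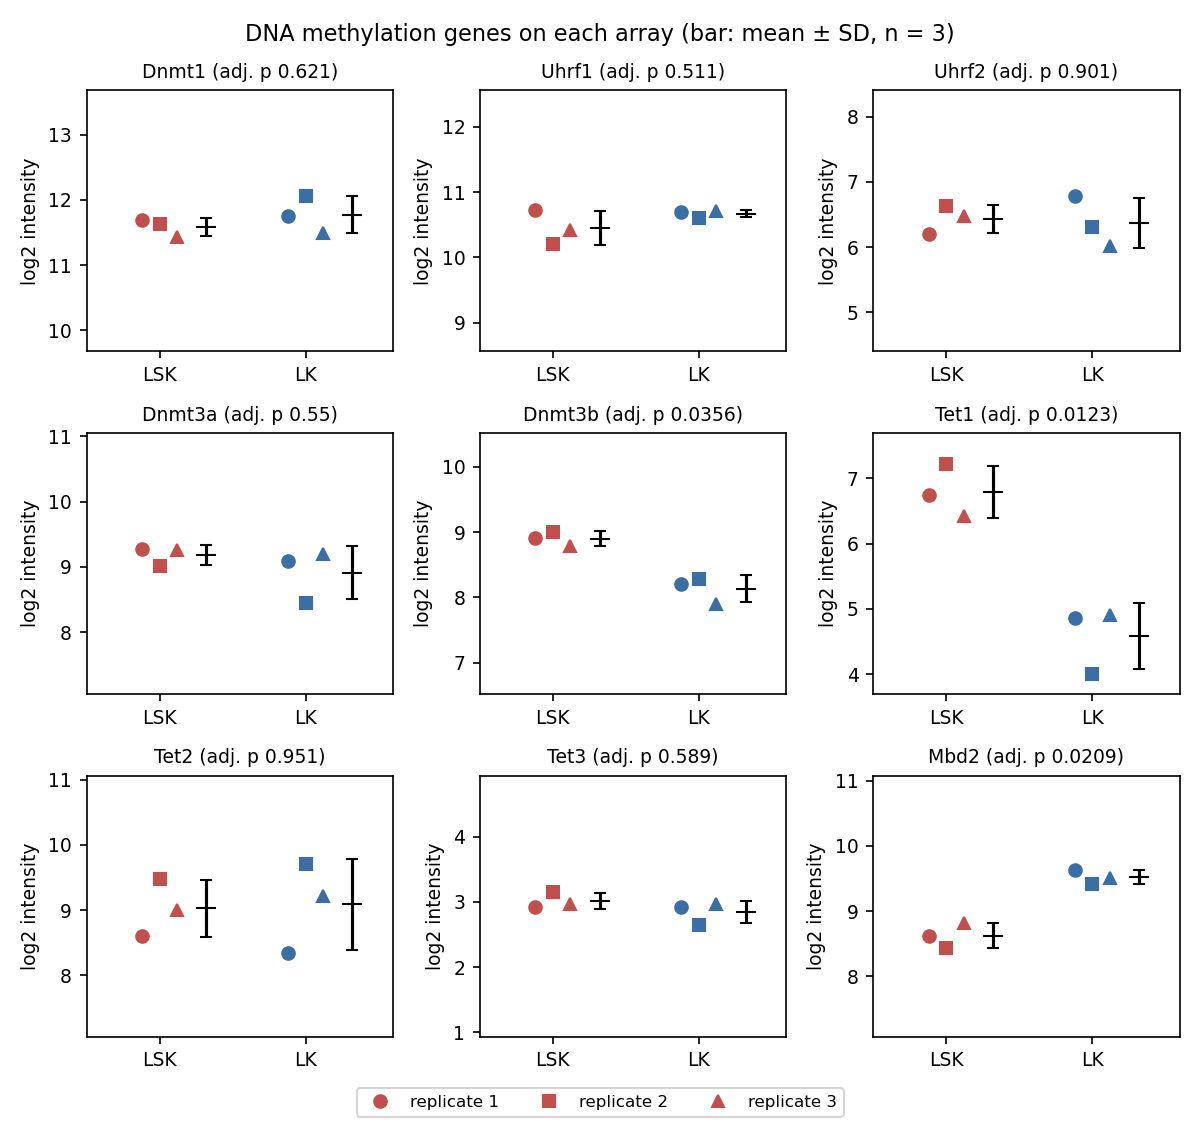
Log2 intensity (vertical axis, each panel spanning 4 log2 units) of the 9 genes on the 3 LSK arrays (red) and the 3 LK arrays (blue), with the replicate number given by the symbol and the mean ± SD (n = 3) by the black bar. The populations are apart in the panels of Dnmt3b, Tet1 and Mbd2 and overlap in the other 6.

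The markers of the sort followed the labels. Of 7 measured stem and multipotent genes 6 were higher in LSK, among them the transcription factor genes Mecom (29.2-fold, adjusted p = 0.000685) and Hlf (17.6-fold, adjusted p = 0.000629). Of 4 committed myeloid genes 4 were lower, such as Mpo, the myeloperoxidase gene (2.24-fold, adjusted p = 0.0323), and of 5 erythroid and megakaryocyte genes 3 were lower, such as Klf1 (27.8-fold, adjusted p = 0.00158). Lymphocyte genes did not pass limma (0 of 4 of B cells, 0 of 4 of T and NK cells, and 0 and 0 at an unadjusted p under 0.05), and the mean log2 level of these lists lay between 2.62 and 3.33 on every array, beside a median of 2.98 to 3.09 over all probe sets. Genes of mature myeloid cells averaged 8.0 to 8.77 in LSK and 7.72 to 8.67 in LK. The list ran from S100a8, with means of 12.8 in LSK and 12.7 in LK, down to Adgre1, with 2.71 and 3.05. In limma 0 of 7 passed (1 at an unadjusted p under 0.05, 3 higher in LSK with the replicate block). The part of these genes in the results was not tested. The arrays numbered 2 stood apart from the others of their population on the second principal component (-31.7 and -41.2, against 7.25 to 29.8). The log2 difference between 3' and 5' control probe sets, higher where RNA is more degraded or amplified more from the 3' end, averaged 2.64 ± 0.56 (SD, n = 3) for LSK, against 3.53 ± 0.36 (SD, n = 3) for LK (two-sided exact permutation p = 0.2, where 0.1 is the smallest possible), and in each of the 3 same-numbered pairs the LK array had the larger value.

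Among the Tet genes, Tet1 was higher in LSK and neither Tet2 nor Tet3 passed the test. The log2 level of Tet1 was 6.75, 7.22 and 6.42 on the LSK arrays and 4.86, 4.01 and 4.90 on the LK arrays. The lowest LSK array lay well above the highest LK array, and the LK values were in the lower part of the range, where folds can be compressed. The difference was 2.21 (SE 0.31), or 4.62-fold, with an adjusted p of 0.0123, and the arrays compared number by number gave 1.89, 3.21 and 1.52. By size, Tet1 ranked 159 of the 18193 differences toward LSK. Leaving out LSK replicate 1 gave an adjusted p of 0.0575, and leaving out any of the other 5 arrays gave 0.0184 to 0.0439. When the 3' to 5' signal was added as a covariate, the Tet1 difference was 1.5 and its adjusted p 0.215.

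All 4 Tet1 probe sets lay above 0, although 3 of them were dim, with means below 4 in LSK and in LK. Their differences were 0.79, 0.62 and 0.52 (adjusted p over all probe sets 0.0761, 0.0951 and 0.196), and none overlapped between the populations. No overlap was also seen in 28.0% of all genes, and the share over all probe sets was not counted. The probe set with a difference of 0.79 passed once the block was fitted (0.0389). Averaging the 4 probe sets gave a Tet1 difference of 1.04 (adjusted p = 0.0101). The size of the Tet1 change therefore depends on the probe set, and its direction was the same in all 4. The annotation ties the probe sets with 0.62 and 0.52 to the same sequence record, so the 4 are not all independent measurements.

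The promoter of Tet1 is shown with that of Dnmt3b, the other gene that was higher in LSK, because CpG dinucleotides are the substrate of the enzymes described. Each line gives the 250 bases before the RefSeq start in build GRCm38.p6, on the gene's strand, with every CpG in capitals. Tet1 lies on the minus strand at chr10:62887325-62887574 and Dnmt3b on the plus strand at chr2:153649199-153649448.
Tet1: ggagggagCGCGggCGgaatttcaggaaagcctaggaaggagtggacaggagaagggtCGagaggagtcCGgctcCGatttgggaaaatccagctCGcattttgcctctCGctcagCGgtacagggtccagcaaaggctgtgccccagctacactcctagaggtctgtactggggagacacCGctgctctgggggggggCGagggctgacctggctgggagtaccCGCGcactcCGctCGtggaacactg
Dnmt3b: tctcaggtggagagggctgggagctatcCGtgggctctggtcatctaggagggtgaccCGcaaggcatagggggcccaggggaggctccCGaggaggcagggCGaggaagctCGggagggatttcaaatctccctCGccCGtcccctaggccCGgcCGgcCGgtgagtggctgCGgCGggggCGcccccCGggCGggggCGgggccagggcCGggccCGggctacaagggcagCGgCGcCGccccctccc
The Tet1 window holds 15 CpGs and the Dnmt3b window 21, and the median over 32851 RefSeq windows of this length is 6. At least as many CpGs as in Tet1 were found in 27.3% of the windows, and at least as many as in Dnmt3b in 16.3%. Of the 13 windows of the 8 genes with an entry in the table (no entry for Mbd2 was used), 12 lay above that median. The Tet2 window was the richest of them, with 51 CpGs, a number reached by 0.067% of all windows. Methylation itself was not measured in these samples.

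Tet2, the Tet gene most often mutated in blood cancers, varied more between replicates than between the populations. Its log2 level was 8.60, 9.48 and 9.0 in LSK and 8.34, 9.70 and 9.22 in LK. In both populations replicate 1 was the lowest and replicate 2 the highest. The difference was -0.06 (SE 0.38, 95% interval -0.97 to 0.85, adjusted p = 0.951), an interval too wide to show that the populations were alike. The sign turned in 6 of 18 alternative settings, and the second Tet2 probe set gave -0.34 (adjusted p = 0.713).

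Tet3 has 1 probe set here, and it was at the lower end of the range, with log2 levels of 2.92, 3.15 and 2.97 in LSK and 2.93, 2.65 and 2.97 in LK. These values lie close to the median of all probe sets, so Tet3 was not measured well above the floor of the arrays in either population. The difference was 0.16 (SE 0.15, adjusted p = 0.589), and it was -0.0040 without both arrays numbered 2.

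Whether Tet1 and Tet2 differed in their response was tested on the difference between them within each array. Tet1 minus Tet2 was higher in LSK by 2.27 (SE 0.68), in 3 of 3 pairs, with a two-sided exact permutation p of 0.1, the smallest that 3 arrays against 3 allow. It was 1 of 4 such pairs, chosen after the values were seen, and the p adjusted over the 4 was 0.2.

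**Figure D2:**
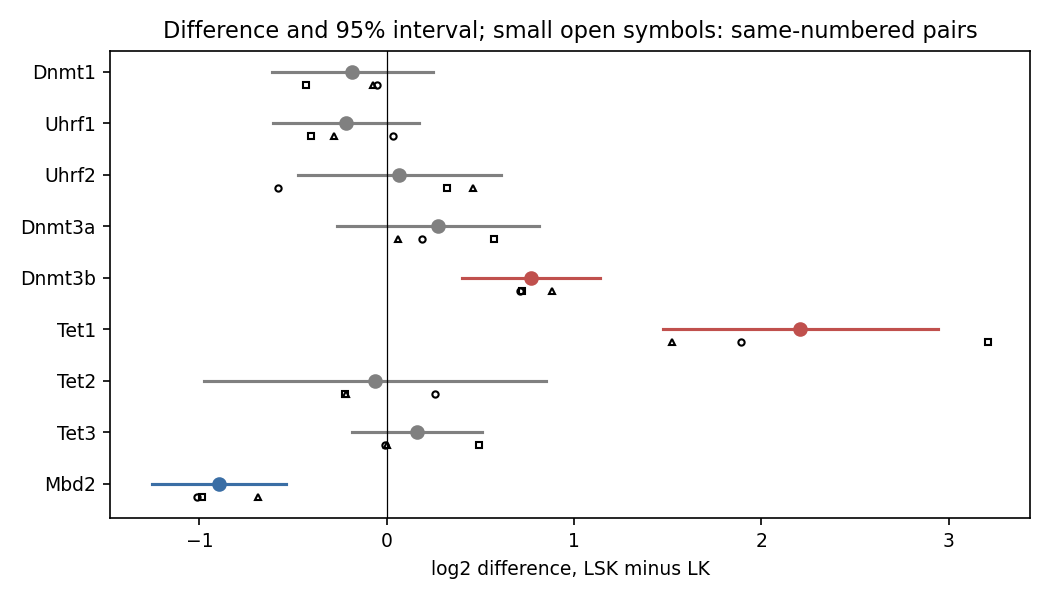
Log2 difference between LSK and LK (horizontal axis) of the 9 genes, with the 95% interval of the limma fit as a line, red where higher, blue where lower and grey where not past the threshold; the small open symbols are the 3 differences between arrays of the same number. Tet1 lies farthest to the right at 2.21, and the intervals of Dnmt3b and Mbd2 also leave out 0.

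Of the methyltransferases that act on unmodified DNA, Dnmt3b was higher in LSK. Its log2 level was 8.92, 9.01 and 8.78 in LSK and 8.21, 8.29 and 7.90 in LK. The LSK arrays lay within 0.23 of each other and all above the LK arrays. The difference was 0.77 (SE 0.15), or 1.71-fold, with an adjusted p of 0.0356, and each pair of the same number gave a positive value (0.71, 0.72 and 0.88). The call was lost in each of the 6 fits without 1 array (adjusted p from 0.0533 to 0.117, differences from 0.65 to 0.85) and with the 3' to 5' covariate (0.73, adjusted p = 0.451). The second Dnmt3b probe set had means of 3.62 and 3.32, near the low end, and a difference of 0.30 (adjusted p = 0.397).

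For Dnmt3a, whose loss in mice expands stem cells, the result turned on the probe set. The one that represents the gene, 1423064_at, had log2 levels of 9.28, 9.01 and 9.26 in LSK and 9.09, 8.44 and 9.20 in LK. The populations overlapped, and only LK replicate 2 was clearly low. The difference was 0.27 (SE 0.23, adjusted p = 0.55).

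The next brightest Dnmt3a probe set, 1423063_at, separated the populations, with 8.24, 8.21 and 7.84 in LSK and 7.12, 6.95 and 7.16 in LK. Its difference was 1.02 (SE 0.16), or 2.03-fold, with an adjusted p of 0.0211 over all probe sets, of which 4.30% passed. Leaving out LSK replicate 3 gave 0.0214, and leaving out any of the other 5 arrays gave 0.0547 to 0.0861. The probe set 1460324_at had a difference of 0.73 (adjusted p = 0.0577, 0.0342 with the replicate block), and 1423065_at had 1.45 (adjusted p = 0.115, 0.0098 with the block). All 5 Dnmt3a probe sets lay above 0, and 3 of them had no overlap. The share without overlap was counted over genes (28.0%) and not over all probe sets. The annotation ties all 5 to the same sequence record, so they are not independent measurements of the gene. Which transcripts each one detects was not tested.

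Dnmt3b minus Dnmt3a within each array, with the representing probe sets, was higher in LSK by 0.50 (SE 0.37, two-sided exact permutation p = 0.3, 0.4 adjusted over the 4 pairs). It was positive in 3 of 3 pairs of the same number, and a p of this size does not show that both genes responded alike. The order of the 2 genes depends on the probe sets used. Averaging all probe sets of each gene gave a difference of 0.77 for Dnmt3a and 0.54 for Dnmt3b.

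**Figure D3:**
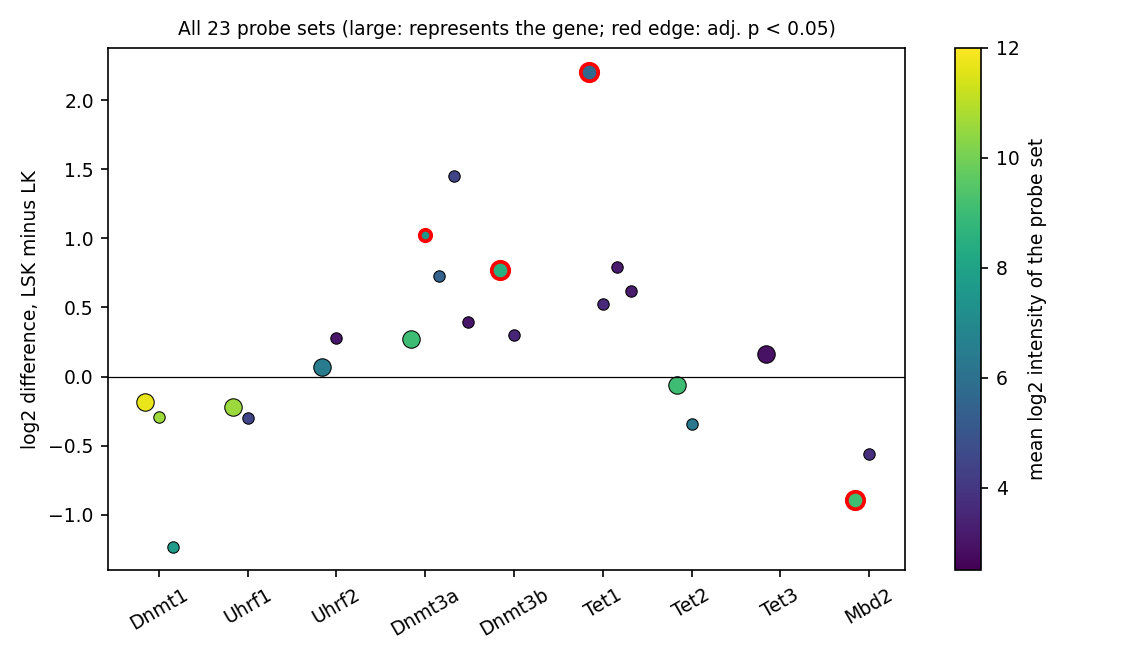
Log2 difference between LSK and LK (vertical axis) of all 23 probe sets by gene, coloured by mean log2 intensity; large points represent the gene and red edges mark an adjusted p under 0.05 over all probe sets. Red edges mark 1 probe set each of Dnmt3a, Dnmt3b, Tet1 and Mbd2, and the Dnmt1 probe sets spread from -1.23 to -0.18.

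Across all 23 probe sets, 4 passed limma, 3 higher and 1 lower in LSK, and 14 lay above 0. The replicate block raised this to 7, of which 3 belong to Dnmt3a, while the share of all probe sets called rose from 4.30% to 11.0%. The count fell to 0 without LSK replicate 1 or without LK replicate 3 (10 and 10 at an unadjusted p under 0.05), to 1 when LSK replicate 2, LK replicate 1 or LK replicate 2 was dropped, and was 3 without LSK replicate 3. How many of all probe sets were under that unadjusted p was not counted. Low signal limits 7 of the 23, which averaged less than 4 on the log2 scale in LSK and in LK alike.

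The maintenance genes did not pass the test. Dnmt1 had log2 levels of 11.70, 11.63 and 11.42 in LSK and 11.75, 12.06 and 11.50 in LK. The populations overlapped, and LK was higher in 3 of 3 pairs of the same number. The difference was -0.18 (SE 0.18, 95% interval -0.61 to 0.25, adjusted p = 0.621).

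The 3 Dnmt1 probe sets did not give the same size. The 2 brightest carry a suffix that marks possible cross-hybridisation with other transcripts and gave -0.18 and -0.30 (adjusted p = 0.644 and 0.476). The probe set 1422946_a_at had 7.60, 6.40 and 7.34 in LSK and 8.39, 8.59 and 8.06 in LK. It had no overlap and a difference of -1.23 (SE 0.32, 2.35-fold lower in LSK), but its adjusted p was 0.0894 over all probe sets and 0.0616 with the block. It passed when dim probe sets were filtered out (0.0417). All 3 lay below 0.

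Uhrf1 had log2 levels of 10.72, 10.20 and 10.43 in LSK and 10.69, 10.60 and 10.71 in LK. The LK arrays were close together and LSK replicate 1 lay above all of them. The difference was -0.22 (SE 0.16, 95% interval -0.61 to 0.17, adjusted p = 0.511), and the second, dim Uhrf1 probe set gave -0.30 without overlap (adjusted p = 0.248). Uhrf2, whose protein shares the domains of Uhrf1 but does not replace it in maintenance, had 6.20, 6.63 and 6.47 in LSK and 6.78, 6.30 and 6.02 in LK. The order of its pairs was mixed, and the difference was 0.07 (SE 0.23, adjusted p = 0.901). Uhrf1 minus Uhrf2 within each array was lower in LSK by a value of -0.28 (SE 0.36, two-sided exact permutation p = 0.5, also after adjustment over the 4 pairs). Dnmt3b minus Dnmt1 was higher in LSK by 0.96 (SE 0.085), in 3 of 3 pairs (two-sided exact permutation p = 0.1, the smallest possible, 0.2 adjusted).

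Dnmt1 and Uhrf1 are known as genes of dividing cells, so the replication genes of S phase were set beside them. In LSK 2 of the 15 measured genes were lower, 0 higher, and 13 missed the threshold, with a median difference of -0.93; 14 lay below 0 and 11 had no overlap. Over all genes 2.89% were lower and 28.0% did not overlap. Cdc6, which loads the replicative helicase, had 5.71, 5.03 and 6.59 in LSK and 8.14, 8.18 and 7.91 in LK (4.91-fold lower in LSK, adjusted p = 0.0188). Mcm2, a helicase subunit, had 8.36, 7.98 and 8.61 in LSK and 9.44, 9.47 and 9.17 in LK (2.07-fold lower, adjusted p = 0.0296). Averaging the Mcm2 probe sets gave a difference of -1.24 (limma adjusted p = 0.0816), and the one of largest variance gave -1.42 (adjusted p = 0.194). The fit with the replicate block put 9 of the 15 lower, and 7.36% of all genes. Leaving out LSK replicate 1, LK replicate 1, LK replicate 2 or LK replicate 3 left 0 called (10, 9, 11 and 9 at an unadjusted p under 0.05), and leaving out LSK replicate 2 or LSK replicate 3 left 1 and 6. The covariate left 0 (3 at an unadjusted p under 0.05), as did dropping the pair numbered 2 (11 at an unadjusted p under 0.05). Of all 18193 genes, 3134 to 3881 were under that unadjusted p in the fits without 1 array that left 0. With the covariate 1730 were under it, and without the pair numbered 2 there were 3747. The list's mean level was 7.10 to 7.77 in LSK and 8.14 to 8.37 in LK. Its part in the values of Dnmt1 and Uhrf1 was not tested.

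E2F factors drive many such genes, and 4 spellings of their motif (TTTCCCGC, TTTCGCGC, TTTGCCGC and TTTGGCGC) were searched on both strands of the same 250-base windows. A match was present in 2 of the 13 windows of the methylation genes and in 1.86% of the 32851 windows. All 4 spellings hold a CpG, and the matched windows of Dnmt1 and Uhrf1 hold 26 and 30 CpGs, against a median of 6. The share among windows as rich in CpG was not counted. Both matches spell TTTCGCGC, each is the only match in its window and so overlaps no other spelling, and each is printed with its flanks, the match in capitals. The Dnmt1 match is on the opposite strand and reads GCGCGAAA here. With its flanks, the printed Dnmt1 stretch of 28 bases lies at chr9:20952825-20952852, minus strand. The printed Uhrf1 stretch lies at chr17:56304118-56304145, plus strand, both in build GRCm38.p6.
Dnmt1: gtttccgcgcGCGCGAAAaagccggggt
Uhrf1: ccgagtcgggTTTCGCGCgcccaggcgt
Both come from 1 of several RefSeq starts of the gene (3 for Dnmt1, 2 for Uhrf1), and the windows of the other starts hold no match. Binding was not measured.

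The reader Mbd2 was lower in LSK. Its log2 level was 8.61, 8.43 and 8.82 in LSK and 9.63, 9.42 and 9.51 in LK. Every LK array lay above every LSK array, and the spread within a population was small beside the gap. The difference was -0.90 (SE 0.15), 1.86-fold lower in LSK, with an adjusted p of 0.0209, and the pairs of the same number gave -1.02, -0.99 and -0.69. The call was kept on dropping LSK replicate 3 (adjusted p = 0.0243) or LK replicate 2 (0.0459) and lost without each other array (0.0535 to 0.0867) and with the 3' to 5' covariate (-0.77, adjusted p = 0.384). The second Mbd2 probe set was dim, overlapped between the populations and gave -0.56 (adjusted p = 0.491); averaging both gave -0.73 (adjusted p = 0.135).

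**Figure D4:**
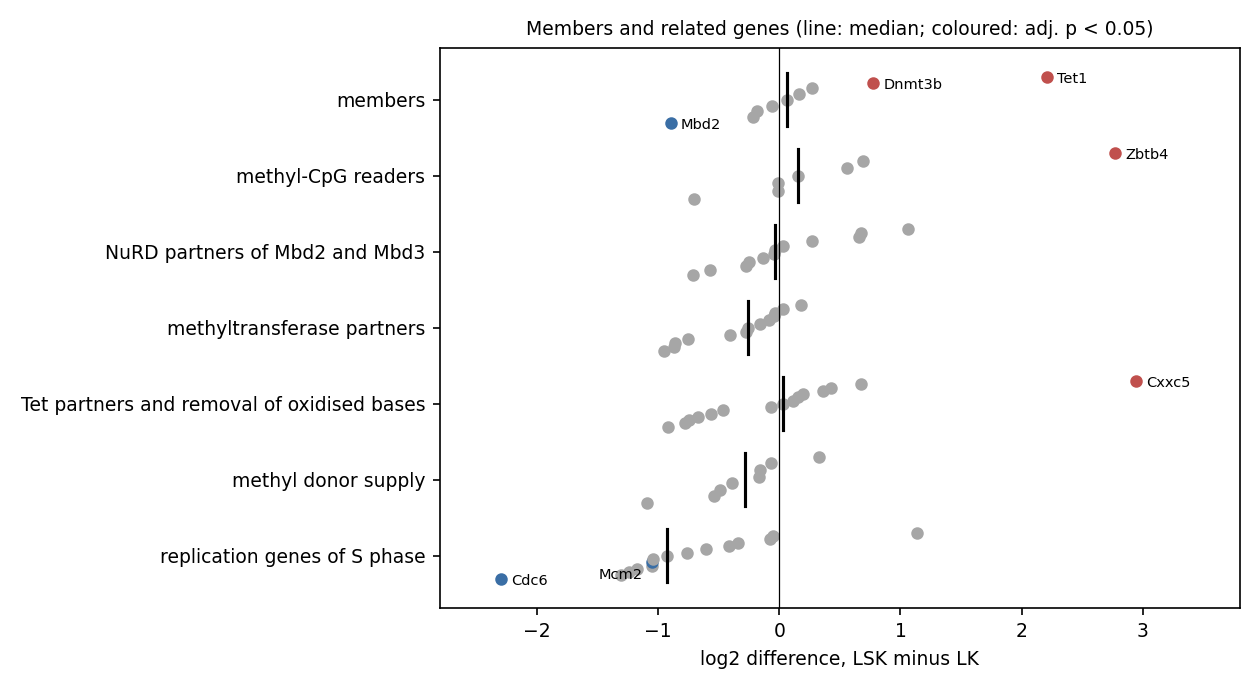
Log2 difference between LSK and LK (horizontal axis) of the 9 genes (top row) and of the measured genes of 6 related lists; each point is a gene, coloured and named where the adjusted p was under 0.05, and black lines are medians. Most replication genes lie left of 0 (median -0.93), while Zbtb4 and Cxxc5 stand apart from their lists at 2.77 and 2.94.

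Related genes were taken as 6 lists, which include the replication genes of S phase described above. Of the 70 genes measured, 2 rose toward LSK, 2 fell and 66 missed the threshold, with a median difference of -0.16. The replicate block put 4 higher and 15 lower. These counts stand beside 6.73% of all genes called, and 14.4% with the block. Both genes that fell, and 9 of the 15 lower with the block, are replication genes, whose median was -0.93. Among 7 other genes listed as methyl-CpG readers, Mbd3 included, 1 was higher, 0 lower and 6 not past the threshold (median 0.16). It was Zbtb4, a zinc finger protein that binds methylated CpG, with 7.18, 6.82 and 6.72 in LSK and 4.49, 4.20 and 3.72 in LK (6.83-fold, adjusted p = 0.00274). No overlap was seen between its arrays, and the call was lost only with the 3' to 5' covariate among the 18 settings (adjusted p = 0.111). The size depends on the probe set, as averaging the 4 Zbtb4 probe sets gave a difference of 1.29 (adjusted p = 0.0119). Mbd3, the paralog that forms NuRD without binding methylated CpG, was at the low end (difference -0.01, adjusted p = 0.986). Mbd1, another reader, had a difference of -0.70 (adjusted p = 0.0654, 0.0382 with the block).

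None of the 12 subunits and partners of the NuRD complex, which Mbd2 recruits, passed limma (4 at an unadjusted p under 0.05), and their median was -0.04. Of all 18193 genes, 4084 were under that unadjusted p. The deacetylase gene Hdac2 had the lowest p, with means of 7.26 ± 0.20 and 7.98 ± 0.23 (SD, n = 3) and a difference of -0.71 (adjusted p = 0.062). It passed in 1 of the 18 settings, when dim genes were filtered out (adjusted p = 0.0455), where 1523 of 6231 genes passed. Averaging its probe sets gave -0.21 (adjusted p = 0.524), and the probe set of largest variance gave 0.39 (adjusted p = 0.63). The replicate block called 1 of the 12, Gatad2b, another NuRD subunit gene (difference 0.66, adjusted p = 0.119, 0.0392 with the block), and cyclic loess and array weights called 1 each.

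None of 13 partners of the methyltransferases passed (4 at an unadjusted p under 0.05, 2 lower with the block), and 11 lay below 0, with a median of -0.26. That unadjusted threshold was met by 4084 of all 18193 genes. Setdb1, a histone methyltransferase of silent chromatin, had the lowest p (difference -0.75, adjusted p = 0.0577, 0.0329 with the block). Without LSK replicate 3, 2 of the 13 passed. Hells, the remodelling ATPase needed for normal methylation, had a difference of -0.40 (adjusted p = 0.222), and Dnmt3l, the inactive cofactor of the de novo enzymes, was at the low end in both populations (2.67 and 2.82).

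Among 15 measured Tet partners and genes for removal of oxidised bases 1 was higher, 0 lower and 14 not past the threshold (median 0.03). It was Cxxc5, a CXXC zinc finger protein that can bind Tet2, with 8.89, 8.17 and 7.97 in LSK and 6.49, 4.35 and 5.37 in LK (7.67-fold, adjusted p = 0.0284). Its LK arrays varied widely, with all below the LSK arrays. The call was lost on dropping LSK replicate 1, LSK replicate 2 or LK replicate 3, without the pair numbered 2 and under the 3' to 5' covariate, and the adjusted p without 1 array ran from 0.0153 to 0.102. Idh1 and Idh2, whose enzymes make the oxoglutarate that Tet proteins consume, had differences of -0.57 and 0.43 (adjusted p = 0.168 and 0.415). The replicate block put 2 of the 15 higher, Cxxc5 and Ogt, and 2 lower, Apex1 and Gadd45a. Ogt, a Tet-binding glycosyltransferase, had a difference of 0.67 (adjusted p = 0.314, 0.0396 with the block). Apex1, an endonuclease of base excision repair, had -0.92 (0.0885, 0.0346 with the block), and Gadd45a, a stress-induced gene linked to demethylation, had -0.67 (0.254, 0.0288 with the block).

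None of 8 genes of methyl donor supply passed (3 at an unadjusted p under 0.05, beside 4084 of all 18193 genes), and 7 lay below 0 (median -0.28). Mtr, the methionine synthase gene, had the lowest p (difference -1.09, adjusted p = 0.0596, 0.0246 with the block).

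The genes whose profiles over the 6 arrays were most like those of the 3 called genes were found by the root mean square distance between log2 profiles, each centred on its own mean. Closest to Tet1 were Camk2a (distance 0.18), Pex11g (0.20) and Foxred2 (0.21), with differences of 2.52, 2.14 and 2.19. Closest to Dnmt3b were Oga (0.051), N4bp2 (0.079) and Bicral (0.080), with differences of 0.75, 0.81 and 0.73. Closest to Mbd2 were Rnf8 (0.046), Clns1a (0.052) and Polg (0.056), with differences of -0.88, -0.95 and -0.89. Their differences follow from the way they were chosen and are given as a description.

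**Figure D5:**
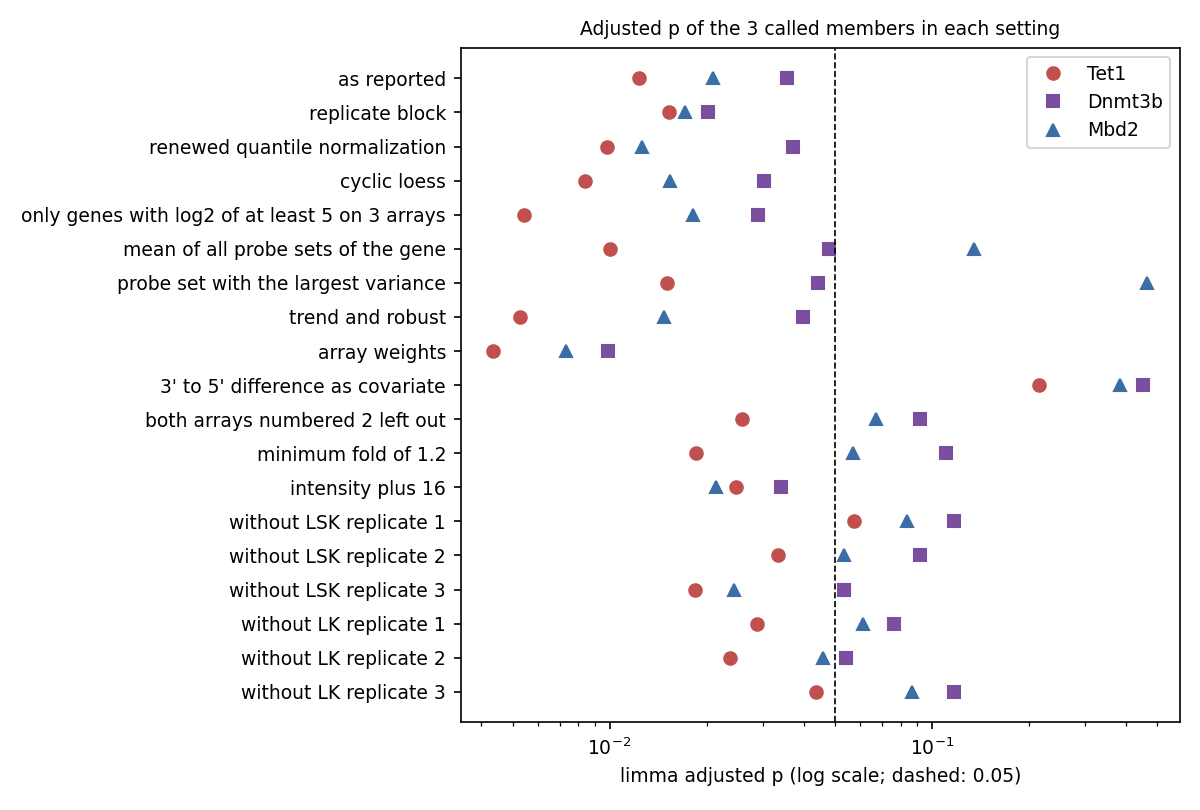
Limma adjusted p (horizontal axis, log scale, dashed line at 0.05) of Tet1, Dnmt3b and Mbd2 in the fit as reported and in the 18 alternative settings (rows). Tet1 stays left of the line except with the 3' to 5' covariate (0.215) and without LSK replicate 1 (0.0575), while Dnmt3b and Mbd2 cross it in 9 settings each.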

How the data were processed

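RNA of sorted LSK and LK cells was linearly amplified, labelled with biotin and hybridised to Affymetrix mouse expression arrays, per the labels' protocols. The authors deposited linear intensities per probe set; the submitters' processing notes name RMA, affy and R 2.11.0. RMA usually includes quantile normalisation, which hides a change common to most genes. Scan files and detection calls were not used here.

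Of 45101 probe sets, 64 controls were left out of tests; 34945 carried 1 symbol, 932 several and 9160 none in the annotation used. Symbols were updated by gene identifier through RefSeq for GRCm38.p6 (34741 matched). Some list genes were not analysed here. Intensities were log2-transformed and tested with limma 3.58.1 in R 4.3.3 (lmFit, eBayes, two-sided), with Benjamini-Hochberg adjustment over 18193 genes, or over 34945 probe sets; code was tested on simulated data. Precision is limited by 3 arrays a population, and the labels do not say that arrays come from separate mice, so p-values may measure partly technical spread.

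The 9 genes and the lists were chosen with earlier results of these data known. Named list genes are those with the largest called differences (up to 2 a direction), or the lowest p where none passed; Mecom, Hlf, Klf1 and Mpo check the sort. Mbd1, Mbd3, Hells, Dnmt3l, Gatad2b, Idh1, Idh2, Ogt, Apex1 and Gadd45a were added after their values were seen. Arrays with the same number deviated together (r = 0.42, 0.43 and 0.27 across genes, at most 0.039 between numbers), a pairing taken from the data; no 2 arrays were identical. Promoter sequences are from RefSeq.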

Additional observations from a re-analysis of the deposited data

How the results depend on the processing

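The 3 called genes kept their direction in all 18 alternative settings, with differences from 1.04 to 2.40 for Tet1, from 0.54 to 0.90 for Dnmt3b and from -1.0 to -0.56 for Mbd2. The number of called genes among the 9 was 3 with the replicate block, and 1 without both arrays numbered 2 or with a minimum fold of 1.2. It was 0 with the 3' to 5' covariate (3 at an unadjusted limma p under 0.05), and from 0 to 2 in the fits without 1 array. With the covariate, 1730 of all 18193 genes were under that unadjusted p.

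Called probe sets of the 9 genes numbered 4 as reported, 7 with the replicate block and 8 with array weights. They numbered 6 with the filter on dim probe sets, and 1 without both arrays numbered 2 or with the minimum fold. With the covariate there were 0 (6 at an unadjusted p under 0.05), and without 1 array from 0 to 3. Of all probe sets, 4.30% were called as reported and 11.0% with the block. That share was not counted in the other settings, so these probe set counts cannot be set against it. Array weights and the block also raised the count over all genes, to 2606 and 2617 from 1225. That count was 25 with the covariate, 537 without both arrays numbered 2, 626 with the minimum fold and from 306 to 1269 without 1 array. It also rose to 1667 with renewed quantile normalisation, 1666 with cyclic loess and 1534 with trend and robust variances. With the filter on dim genes it was 1523 of the 6231 genes kept. Of the genes in the related lists, 19 passed with the replicate block, 12 with renewed quantile normalisation, 11 with cyclic loess, 12 with the filter on dim genes, 10 with trend and robust variances, 20 with array weights, 0 with the covariate (5 at an unadjusted p under 0.05), 1 without both arrays numbered 2 and from 1 to 12 without 1 array, against 4.

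The sign turned only where no call was made. Tet2 was 0.034 with cyclic loess, 0.35 with the covariate and 0.021 without both arrays numbered 2, and ran from -0.44 to 0.25 without 1 array. Uhrf2 was -0.060 without both arrays numbered 2 and ran from -0.11 to 0.27 without 1 array, Tet3 was -0.0040 without both arrays numbered 2, and Hdac2 was 0.39 with the probe set of largest variance. The filter on dim genes moved the median of all genes to -0.10 and removed Tet3. The cause of these changes was not tested. The fits without 1 array and without both arrays numbered 2 also rest on fewer samples, and the part of that was not tested. Precision is limited by 3 arrays a population. Near the low end of the range lie 7 of the 23 probe sets, that of Tet3 among them. Differences there can be compressed or hold no signal, which was not tested.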
